A study of Mus musculus with 23 samples.

Results

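The genes described are the 38 that encode the machinery by which mechanistic target of rapamycin complex 1 (mTORC1) reads amino acid supply. They were taken by symbol from both deposited expression tables, and all 38 were found among 28096 entries of the alpha cell table and 22412 of the tissue table. Gatsl2 and Gatsl3 are the older symbols of Castor2 and Castor1, and Lamtor1, Lamtor4 and Lamtor5 were matched in the alpha cell table by gene identifier. The choice was made by symbol and not by a cut on measured values, but with earlier results of these data known.

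Their RNA was measured by bulk sequencing of 23 mouse libraries. The study concerns pancreatic neuroendocrine tumors that form when the glucagon receptor, GCGR, is lost, that depend on amino acids and that start in alpha cells, the glucagon-secreting cells of the islet. Sorted alpha cells were from GCGR heterozygous mice (n = 3) and GCGR homozygous knockout mice (n = 5), both given tamoxifen intraperitoneally at 200 mg/kg over 5 days, with islets taken 14 to 21 days afterwards. The other pair of groups was dissected tumors (n = 7) and non-tumor pancreatic tissue (n = 8), and both are labelled as GCGR homozygous knockout, so this pair holds no animal with a working receptor. The tissue samples are labelled with no treatment, although the same tamoxifen text is attached to them. All animals ate standard chow. No wild-type group, age, Cre driver or animal identity is given in the labels used here, so p-values measure the spread between libraries.

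mTORC1 is a kinase complex that promotes protein synthesis and restrains autophagy when amino acids are plentiful. Amino acids act through Rag GTPases, which pair RagA or RagB with RagC or RagD and are held on the lysosome by Ragulator, and active Rags bring mTORC1 to the membrane where Rheb switches it on. GATOR1 turns RagA and RagB off, and GATOR2 opposes GATOR1. The leucine sensor Sestrin2 and the arginine sensor CASTOR1 hold GATOR2 back when those amino acids are scarce. The other Sestrins and CASTOR2 are their relatives, and amino acid binding is not assumed for them here. Raised circulating amino acids and alpha cell growth through mTORC1 are known consequences of blocked glucagon signalling in mice.

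Marker genes matched the labelled tissues. The summed alpha cell markers made up 63.3 to 72.0% of the values in every alpha cell library, and 30.4 to 53.4% in tumors against 0.00736 to 0.0895% in non-tumor tissue. The summed acinar markers, which include digestive enzymes of the exocrine pancreas, made up 52.7 to 59.7% of non-tumor libraries and 0.745 to 19.4% of tumors. The targeted gene, Gcgr, was listed at 0 in every heterozygous library and in 4 of 5 knockouts, so it does not check those labels. In tissue it was at 0 in all 7 tumors and reached at most 0.135 RPKM (reads per kilobase of gene, scaled to library size) in non-tumor pancreas. The alpha cell libraries numbered 1 and 2 of each genotype listed 13124 to 13882 genes above 0, and the remaining 4 listed 16123 to 16579. Depth is unknown for the alpha cell table, and 7084676 to 15605157 reads per library were recovered from the tissue table.

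All complexes of the pathway were transcribed in all 4 groups, at uneven levels. The 38 genes summed to 249 ± 26.2 RPKM (SD, n = 3) in heterozygous alpha cells and 291 ± 35.7 RPKM (SD, n = 5) in knockout alpha cells. In the separately scaled tissue table they summed to 131 ± 14.9 RPKM (SD, n = 8) in non-tumor pancreas and 513 ± 42.3 RPKM (SD, n = 7) in tumors. Gatsl2, which encodes CASTOR2, had the highest mean of all 38 in both alpha cell groups. It read 59.8, 73.4 and 44.6 RPKM in the 3 heterozygous libraries and 54.0, 106, 35.2, 34.1 and 59.1 RPKM in the 5 knockout libraries. Its relative Gatsl3, which encodes the arginine sensor CASTOR1, was near the bottom of the same cells, listed at 0 in 2 of 3 heterozygous and 3 of 5 knockout libraries and at no more than 0.482 RPKM.

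In tumors the order was led by the Rag genes Rragb and Rraga, followed by Sec13 and Gatsl2. In non-tumor pancreas it was led by Eif4ebp1, which encodes the translation repressor 4E-BP1, followed by Lamtor2 and Sec13. Mean levels under 1 RPKM were found for 6 genes in heterozygous cells, 4 in knockout cells, 3 in tumors and 12 in non-tumor pancreas. Rps6, the ribosomal protein that S6 kinase phosphorylates, was low for a ribosomal gene, at 0.852 to 7.71 RPKM in alpha cells and 0 to 1.19 RPKM in tissue. Rps6 has many near-identical processed copies in the genome, and how reads shared with them were counted is not given in the sources used here, so its level is uncertain. The level of the Ragulator subunit gene Lamtor3 is also uncertain. It was listed at 0 in all 8 non-tumor libraries and in 5 of 7 tumors, but at 0.517 to 6.32 RPKM in alpha cells. The reason was not tested.

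**Figure D1:**
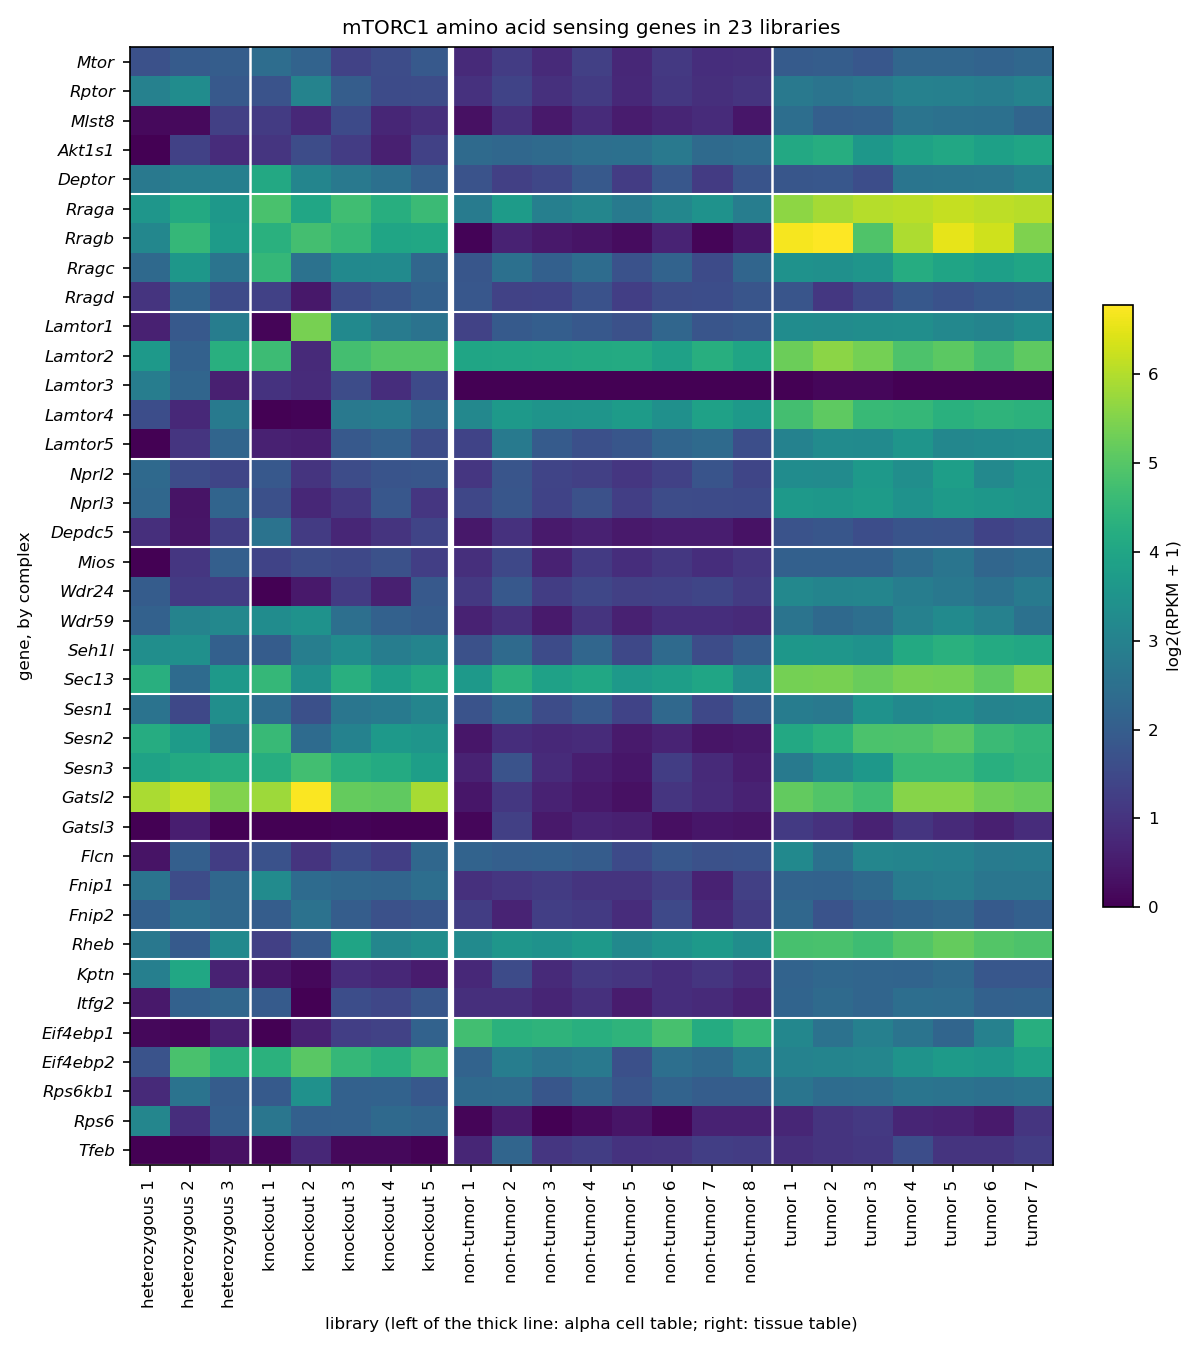
Levels of the 38 genes in each of the 23 libraries as log2(RPKM + 1), with rows grouped by complex (white lines) and columns by group; the thick white line parts the alpha cell table from the tissue table, which were scaled separately. Gatsl2 is bright in alpha cells and tumors and dark in non-tumor tissue, while Eif4ebp1 is brightest in non-tumor tissue.

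The genotypes were compared in alpha cells to ask whether receptor loss alters the transcripts of the sensing machinery itself. No gene of the machinery passed the test in either direction. Of 35 tested, 0 rose and 0 fell at an adjusted p under 0.05 (limma), against 0.159% of all 10718 tested genes that rose and 0.103% that fell. At an unadjusted p under 0.05 the count was also 0 of 35, against 10.6% of all genes. No tested gene of the machinery had groups that did not overlap, against 3.85% of all genes with knockout libraries all higher and 3.6% with knockout libraries all lower. The log2 fold change was above 0 for 22 of 35, against 50.3% of all genes, and its median was 0.17 over the 35 and 0.00 over all genes.

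These intervals were wide, so a missed threshold does not show equal levels. The 95% intervals of the log2 fold change reached 0.71 to 1.95 to each side, and 32 of 35 held a change of 1 or -1. The largest estimate of either sign in Ragulator was 1.02 for the membrane anchor Lamtor1, and its 5 knockout values ran from 0.062 to 41.4 RPKM. For the Sestrin and CASTOR genes, the estimates were 0.04 for Sesn1, -0.10 for Sesn2, 0.17 for Sesn3 and -0.13 for Gatsl2. Sesn3 had 1 of the narrowest intervals, from -0.54 to 0.89.

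The gene of lowest p was Rraga, encoding the GTPase RagA. It read 10.8, 16.5 and 11.2 RPKM in heterozygous cells and 27.7, 15.3, 25.2, 18.2 and 23.9 RPKM in knockout cells. Knockout library 2 fell within the heterozygous range, and the other 4 lay above it. The log2 fold change was 0.73 (SE 0.34, adjusted p = 0.476), and its 95% interval ran from -0.00 to 1.46. Rragb, encoding RagB, was at a similar level, with 14.0 ± 7.13 RPKM in heterozygous cells, 19.4 ± 4.70 RPKM in knockouts and a log2 fold change of 0.52 (SE 0.38, adjusted p = 0.655).

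The next lowest p values belonged to the 4E-BP genes, whose proteins block cap-dependent translation until mTORC1 phosphorylates them. Eif4ebp2 read 2.32, 27.6 and 19.3 RPKM in heterozygous cells and 19.3, 31.9, 21.7, 18.9 and 25.2 RPKM in knockout cells. The low heterozygous library 1 carried the difference: the log2 fold change was 0.95 (SE 0.57, adjusted p = 0.567) with it and -0.01 without it. Eif4ebp1 was much lower, at 0.106, 0.0690 and 0.512 RPKM in heterozygous and 0, 0.548, 1.38, 1.53 and 3.39 RPKM in knockout cells, with a log2 fold change of 0.79 (SE 0.48, adjusted p = 0.574). Knockout library 1 was listed at 0 and the other 4 knockout libraries lay above all 3 heterozygous ones.

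Rptor, encoding the scaffold raptor that recruits mTORC1 substrates, had the largest negative estimate. Its values were 6.86, 8.87 and 2.71 RPKM in heterozygous cells and 2.31, 7.15, 2.99, 1.93 and 2.00 RPKM in knockout cells, and the log2 fold change was -0.75 (SE 0.52, adjusted p = 0.631). Knockout library 2 was as high as the heterozygous libraries 1 and 2, and heterozygous library 3 was as low as the remaining knockouts.

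The remaining 3 genes lay under the expression filter of 1 RPKM in at least 3 libraries. They were Gatsl3, the lysosomal transcription factor gene Tfeb, at 0 to 0.692 RPKM, and Kptn, which encodes a subunit of the KICSTOR scaffold that holds GATOR1 on the lysosome. Kptn read 6.60, 15.6 and 0.579 RPKM in heterozygous cells and 0.313, 0.116, 0.806, 0.684 and 0.421 RPKM in knockout cells. Heterozygous libraries 1 and 2 were therefore far above the other 6. The third heterozygous library lay within the knockout range, and Kptn was not tested. Both high libraries belong to the class with few genes above 0, and so do knockout libraries 1 and 2 at the low end. Summed acinar markers were 0.00204, 0.690 and 0.130% of heterozygous libraries 1 to 3, against 0.00108 to 0.0126% of knockout libraries (14 genes). The 6 immediate early markers, which respond to handling among other signals, summed to 653 to 881 RPKM in heterozygous and 124 to 386 RPKM in knockout libraries. The 6 ductal markers summed to 10.4 to 21.9 RPKM in heterozygous and 36.2 to 73.0 RPKM in knockout libraries, with Krt19, Sox9 and Cftr at 0 in all 8. Their part in any of these differences was not tested.

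**Figure D2:**
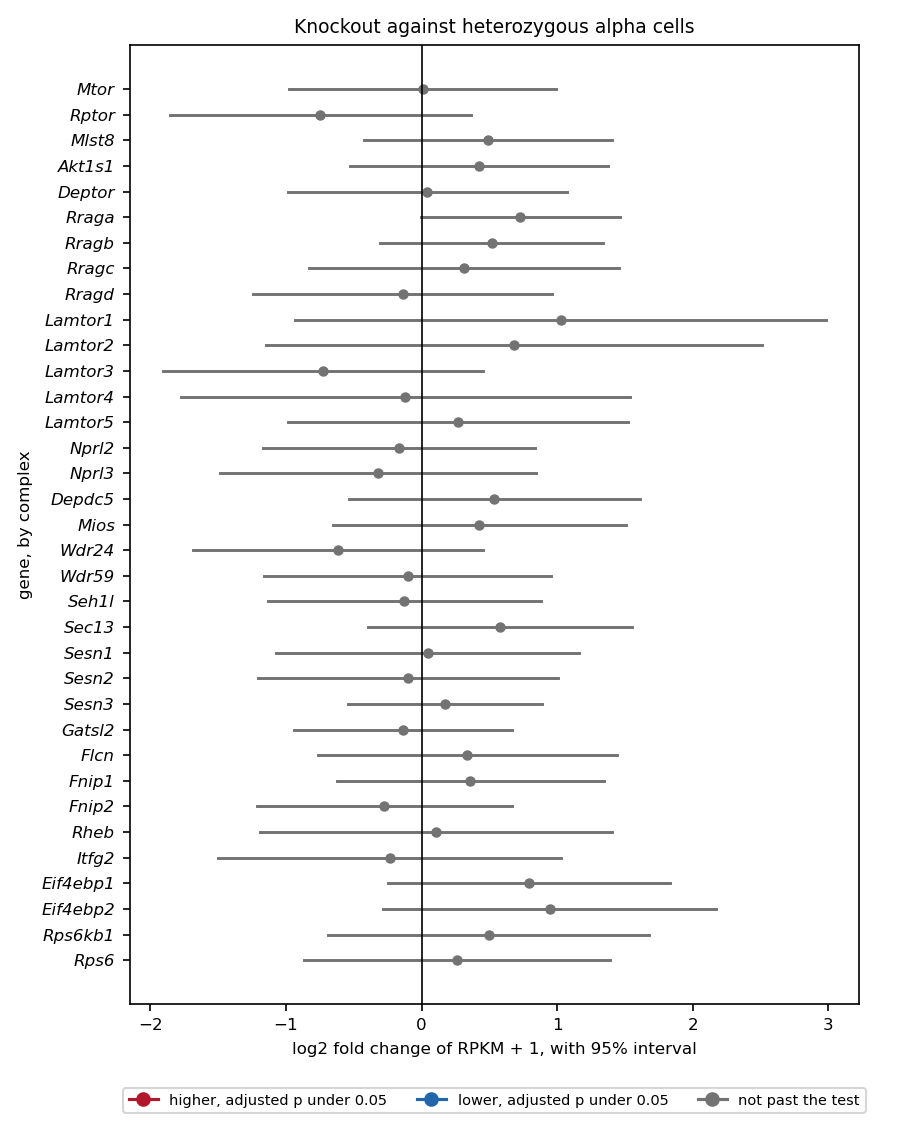
Log2 fold change of the 35 tested genes between knockout (n = 5) and heterozygous (n = 3) alpha cells on the log2(RPKM + 1) scale, points with 95% intervals from limma, in order of complex. Every interval includes 0, and most reach beyond 1 or -1.

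Tumors were compared with non-tumor pancreas of the same genotype to ask how the machinery differs once a tumor has formed. Because these are bulk tissues, fewer cells of a type and less RNA per cell cannot be told apart, and the exchange of acinar for alpha cell markers given above separates the groups completely. On the scale of the deposited values, 32 of 35 tested genes rose, 1 fell (Eif4ebp1) and 2 did not pass the test (Rragd and Tfeb). These shares are close to those of the whole table: 90.7% of all 10220 tested genes rose and 3.68% fell, and the median log2 fold change was 1.46 over the 35 and 1.46 over all genes. Likewise, 31 of 35 had all tumors above all non-tumor libraries, as did 76.9% of all genes, and 0 of 35 had all tumors below, against 1.62%.

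Values were therefore also read relative to the median gene, after each library had been centred on the median log2 value of the tested genes, which removed a shift of 1.54 between the groups. On that scale 10 of the 35 rose and 14 fell, against 28.6 and 36.7% of all genes. Their median was -0.08, the same as that of all genes. Since low genes are compressed by the added 1 RPKM, each gene was also read under 4 scalings: this centring, centring with 0.1 RPKM added, median-of-ratios scaling and quantile normalization. Under all 4, 9 genes rose (Rptor, Rraga, Rragb, Nprl2, Nprl3, Wdr59, Sesn2, Sesn3 and Gatsl2), against 23.6% of all genes. A further 9 fell (Deptor, Rragd, Lamtor2, Lamtor4, Flcn, Eif4ebp1, Eif4ebp2, Rps6kb1 and Tfeb), against 19.9%. The share that fell was near that of all genes, and so was the share that rose. The falls depended on the expression filter. When centring was done without a filter, 19 of 38 genes rose and 7 fell, against 30.8 and 48% of 17573 genes. The 9 rises and the falls of Rragd, Eif4ebp1, Rps6kb1 and Tfeb were still called there, and the calls of Deptor, Lamtor2, Lamtor4, Flcn and Eif4ebp2 were lost. Mlst8, Akt1s1, Rragc, Lamtor1, Wdr24, Seh1l, Sec13, Fnip1, Rheb and Itfg2 were also called higher there. Of the 35, 15 had fewer than 7 non-tumor libraries at 1 RPKM. Of these, 14 entered the test through the tumors, and Tfeb had 6 libraries at that level in each group. The 14 include Rptor, Rragb, Wdr59, Sesn2, Sesn3 and Gatsl2, so the p-values of those rises are not free of that selection. Rragb, Sesn2 and 3 more had no non-tumor library at 1 RPKM. The individual genes follow by complex, and the part of cell content in their differences was not tested.

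**Figure D3:**
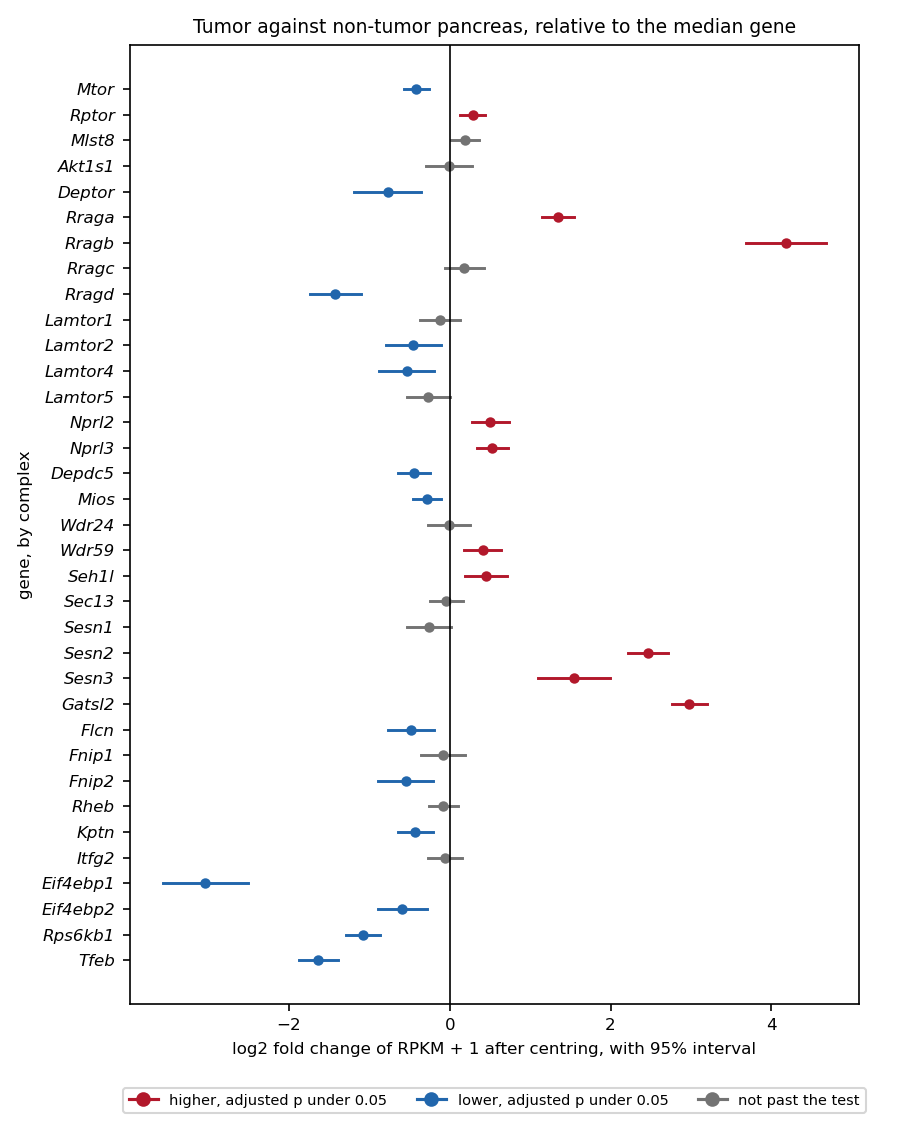
Log2 fold change of the 35 tested genes between tumors (n = 7) and non-tumor pancreas (n = 8) after each library was centred on its median gene, points with 95% intervals from limma, in order of complex and coloured by call. Rragb, Gatsl2, Sesn2, Sesn3 and Rraga lie farthest to the right, and Eif4ebp1, Tfeb, Rragd and Rps6kb1 farthest to the left.

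Relative to the median gene, the Rag genes Rragb and Rraga rose and Rragd fell, and Rragc did not pass the test. Rragb (chromosome X, 153137644 to 153190192, GRCm38), whose product RagB is known to be abundant in brain, was nearly silent in non-tumor pancreas, with a lowest, median and highest value of 0.0414, 0.316 and 0.589 RPKM. In tumors the same 3 values were 29.1, 77.4 and 109 RPKM. No library of either group came near the other group, and the recovered reads were 1 to 12 per non-tumor library and 1028 to 3961 per tumor. The ratio of group means was 238, and the centred log2 fold change was 4.18 (SE 0.23, adjusted p = 2.27e-10).

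Rraga (chromosome 4, 86575673 to 86577285), the more widely transcribed gene of the pair, had a lowest, median and highest value of 5.84, 7.10 and 12.1 RPKM in non-tumor pancreas. In tumors these were 48.4, 65.3 and 71.4 RPKM. The groups did not overlap on the deposited or the centred scale, and the centred log2 fold change was 1.35 (SE 0.09, adjusted p = 2.46e-09). Rragc, encoding the partner RagC, did not pass the centred test (log2 fold change 0.18). Rragd, encoding the alternative partner RagD, had a lowest, median and highest value of 1.41, 2.02 and 2.56 RPKM in non-tumor pancreas and 1.16, 2.45 and 2.96 RPKM in tumors. Its groups overlapped on the deposited scale, with a log2 fold change of 0.12, and relative to the median gene all 7 tumors lay below all non-tumor libraries (log2 fold change -1.42 (SE 0.15, adjusted p = 3.69e-07)).

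Promoter sequences of 300 bases, from 250 before to 50 after an annotated transcript start, are given for 4 of the 5 genes with the largest rises and for Lamtor4, in order to show where the letters CACGTG stand. This palindrome, which reads the same on both strands, is the core of the E-box bound by TFEB and related factors. It was found in the promoters of 6 of 33 genes with an entry (18.2%), Rragb, Lamtor4, Lamtor1, Rragc, Rheb and Fnip1, and in 8.09% of 27025 genes of the table, where a gene with several starts counts once and any of its windows can hold the match. Rragb held 3 matches, a number reached by 25 genes of the table, and Lamtor4 held 2. The remaining 3 shown held none. A match describes letters and is not a bound site. The sequences are RefSeq's, build GRCm38.p6, written 5′ to 3′ on the gene's strand, with each CACGTG in capitals: Rragb from chrX:153139708-153140007 on the plus strand, Lamtor4 from chr5:138255232-138255531 on the plus strand, Rraga from chr4:86575423-86575722 on the plus strand, Sesn2 from chr4:132510407-132510706 on the minus strand and Gatsl2 from chr5:134099498-134099797 on the plus strand.
Rragb: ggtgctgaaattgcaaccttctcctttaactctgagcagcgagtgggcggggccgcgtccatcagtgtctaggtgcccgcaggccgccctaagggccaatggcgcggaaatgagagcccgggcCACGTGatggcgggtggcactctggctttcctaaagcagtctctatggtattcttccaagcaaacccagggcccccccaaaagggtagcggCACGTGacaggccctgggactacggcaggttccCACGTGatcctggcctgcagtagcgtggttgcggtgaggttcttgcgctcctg
Lamtor4: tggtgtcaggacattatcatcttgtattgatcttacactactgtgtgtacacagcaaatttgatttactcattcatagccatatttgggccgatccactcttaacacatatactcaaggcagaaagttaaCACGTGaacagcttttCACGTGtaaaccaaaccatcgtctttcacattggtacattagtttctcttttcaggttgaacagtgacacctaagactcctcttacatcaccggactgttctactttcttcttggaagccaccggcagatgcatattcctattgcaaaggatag
Rraga: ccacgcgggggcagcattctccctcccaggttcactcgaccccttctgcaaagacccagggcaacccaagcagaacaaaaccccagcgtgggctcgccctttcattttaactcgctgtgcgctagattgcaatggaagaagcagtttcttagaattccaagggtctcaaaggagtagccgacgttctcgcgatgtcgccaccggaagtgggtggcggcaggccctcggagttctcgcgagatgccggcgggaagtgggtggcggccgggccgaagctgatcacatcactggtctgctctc
Sesn2: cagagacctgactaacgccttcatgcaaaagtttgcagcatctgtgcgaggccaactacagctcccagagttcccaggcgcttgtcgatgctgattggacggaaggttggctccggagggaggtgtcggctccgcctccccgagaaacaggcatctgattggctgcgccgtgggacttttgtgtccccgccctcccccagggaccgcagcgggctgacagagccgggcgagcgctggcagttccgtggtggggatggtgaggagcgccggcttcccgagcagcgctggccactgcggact
Gatsl2: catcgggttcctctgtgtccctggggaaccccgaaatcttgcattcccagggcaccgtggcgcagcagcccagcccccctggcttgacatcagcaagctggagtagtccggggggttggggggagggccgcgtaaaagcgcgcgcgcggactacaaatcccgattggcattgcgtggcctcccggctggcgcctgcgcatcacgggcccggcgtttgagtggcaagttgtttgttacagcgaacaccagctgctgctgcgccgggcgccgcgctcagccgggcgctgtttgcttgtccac

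Relative to the start on which each window was placed, the matches began at -127, -36 and -3 in Rragb and at -120 and -104 in Lamtor4. The Rragb window was placed on a transcript start 2314 bases inside the annotated span of the gene, and the other 4 windows shown were placed on the first base of theirs. Whether the 6 genes with a match shared a direction in tumors depended on the processing. Rragb rose and Lamtor4 fell under all 4 scalings, and Lamtor1, Rragc, Rheb and Fnip1 were called in neither direction under all 4. On the deposited scale all 6 were called higher, as were 90.7% of all genes. After centring without a filter, Rragb, Lamtor1, Rragc, Rheb and Fnip1 were called higher, against 30.8% of all genes. Lamtor4 was not called there (-0.13).

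The Sestrin and CASTOR genes held the other large rises. Gatsl2 (chromosome 5, 134099748 to 134141782), whose product CASTOR2 binds GATOR2, had a lowest, median and highest value of 0.231, 0.570 and 1.12 RPKM in non-tumor pancreas and 25.1, 35.9 and 46.2 RPKM in tumors. The ratio of means was 57.8, with a centred log2 fold change of 2.98 (SE 0.10, adjusted p = 6.85e-13). Only 2 non-tumor libraries reached 1 RPKM, so Gatsl2 entered the test through the tumors. Every tumor lay above every non-tumor library. Gatsl3, encoding CASTOR1, stayed under the filter, at 0.0936, 0.357 and 1.45 RPKM in non-tumor pancreas and 0.508, 0.832 and 1.21 RPKM in tumors, and was not tested.

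Sesn2 (chromosome 4, 132492804 to 132510456), encoding the leucine sensor Sestrin2, which is also induced by stress, read 0.294, 0.512 and 0.863 RPKM at its lowest, median and highest in non-tumor pancreas and 16, 23.8 and 32.3 RPKM in tumors (centred log2 fold change 2.47 (SE 0.12, adjusted p = 3.84e-11)). Sesn3 (chromosome 9, 14276301 to 14326134), a FOXO target gene, read 0.341, 0.657 and 2.30 RPKM in non-tumor pancreas and 6.00, 18.5 and 22.7 RPKM in tumors (centred log2 fold change 1.55 (SE 0.21, adjusted p = 7.09e-06)). For both genes the groups were separate on either scale. Tumors 1 to 3 had the lowest Sesn3 values, 6.00 to 11.3 RPKM, and tumors 4 to 7 had 18.5 to 22.7 RPKM. Sesn1, a p53 target gene, did not pass the centred test (log2 fold change -0.26) and was called lower in 2 of the other 3 scalings (-0.43 and -0.30).

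**Figure D4:**
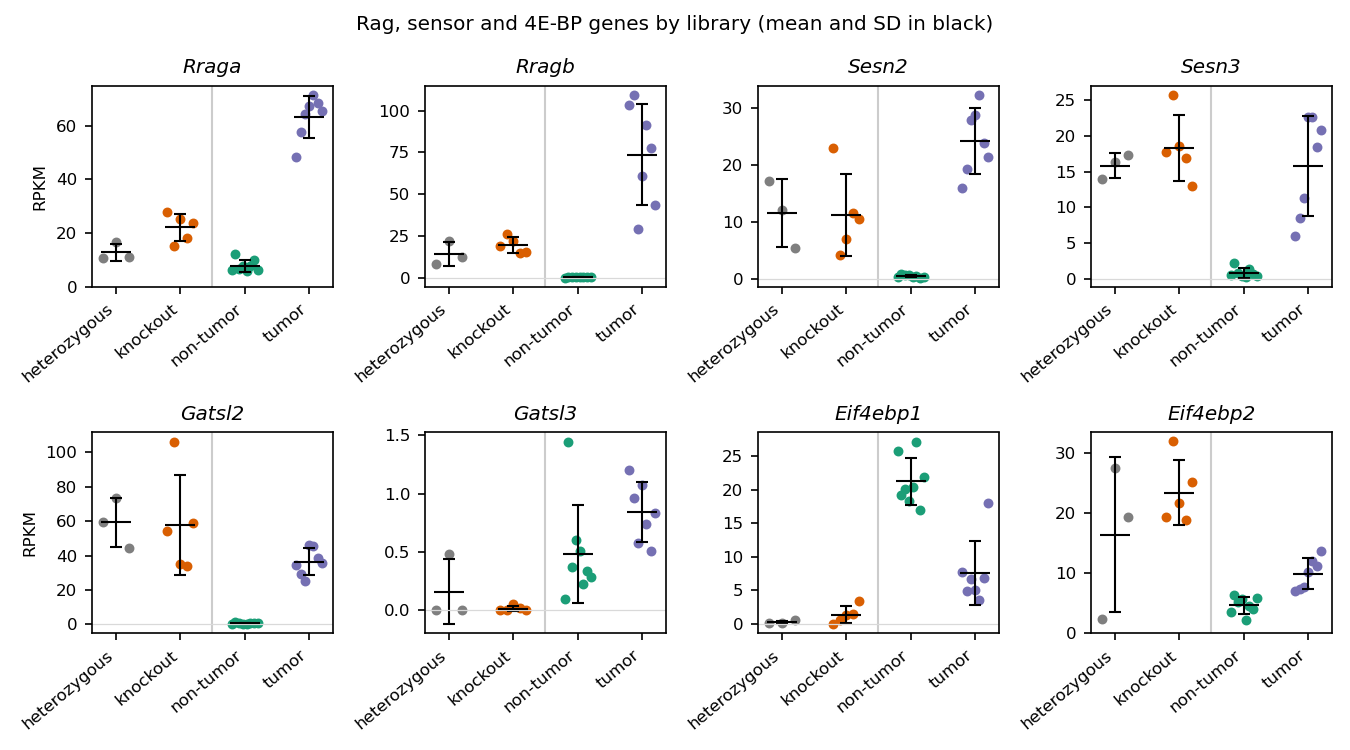
RPKM of 8 Rag, sensor and 4E-BP genes in each library of the 4 groups, with group mean and SD in black; the grey line parts the 2 separately scaled tables. Rragb, Sesn2, Sesn3 and Gatsl2 sit near 0 in all 8 non-tumor libraries and are present in alpha cells and tumors, and Eif4ebp1 is highest in non-tumor pancreas, where only tumor 7 reaches its range.

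The subunits of GATOR1, the inhibitor of RagA and RagB, did not move together. Nprl2 and Nprl3 rose, from 1.66 ± 0.512 to 9.91 ± 1.75 RPKM (centred log2 fold change 0.50 (SE 0.11, adjusted p = 0.000612)) and from 1.91 ± 0.351 to 11.2 ± 0.782 RPKM (0.53 (SE 0.09, adjusted p = 9.61e-05)). Depdc5, the subunit that contacts the Rags, went from 0.474 ± 0.214 to 2.14 ± 0.347 RPKM. Its direction depended on the scaling: its log2 fold change was -0.44 after centring (called lower), 0.03 after centring with 0.1 RPKM added and 0.25 with median-of-ratios scaling (called higher).

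In GATOR2, which opposes GATOR1, Wdr59 rose under all 4 scalings, with log2 fold changes of 0.41 to 0.83 and 0.738 ± 0.215 RPKM in non-tumor against 5.82 ± 1.60 RPKM in tumor libraries. Seh1l was called higher in 3 of the 4 scalings (0.38 to 0.53), Mios was called lower in the centred fit alone (-0.28) and Wdr24 in none. Sec13 was called lower in 1 of the 4, with 0.1 RPKM added (-0.43). After centring without a filter, both Wdr24 and Sec13 were called higher. Seh1l and Sec13 also serve the nuclear pore, and Sec13 the COPII coat of secretory vesicles. Both tested KICSTOR genes rose on the deposited scale, but Kptn was called lower (-0.43) and Itfg2 not called (-0.06) after centring. Neither had the same sign under all 4 scalings, and Itfg2 was called higher under median-of-ratios scaling (0.41).

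Ragulator, the lysosomal anchor of the Rags, summed to 32.5 ± 3.73 RPKM in non-tumor pancreas and 75.4 ± 12.1 RPKM in tumors. Lamtor2 went from 15.7 ± 1.37 to 35.1 ± 7.35 RPKM and Lamtor4 from 11.0 ± 1.81 to 23.2 ± 5.13 RPKM, both less than the median gene. Their centred log2 fold changes were -0.45 (SE 0.16, adjusted p = 0.0232) and -0.54 (SE 0.16, adjusted p = 0.00787), and both were called lower under all 4 scalings. Without a filter neither was called (-0.05 and -0.13). The Lamtor2 call was lost when tumor 4, 5 or 6 was left out (log2 fold change -0.37 to -0.41). Lamtor1 and Lamtor5 did not pass the centred test, Lamtor5 was called lower in 2 of the other 3 scalings (-0.46 and -0.33), and Lamtor3 was under the filter.

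Flcn, encoding folliculin, which with FNIP1 or FNIP2 turns RagC and RagD into the active state, fell relative to the median gene (log2 fold change -0.48 (SE 0.13, adjusted p = 0.00492)) while its RPKM went from 2.71 ± 0.557 to 6.75 ± 1.22. Without a filter it was not called (-0.08). Of its partners, Fnip1 was called in none of the 4 scalings, but higher on the deposited scale and after centring without a filter. Fnip2 was called lower in 2 of the 4 (-0.55 and -0.40). Rheb, the direct activator of mTORC1, went from 9.97 ± 1.31 to 29.1 ± 3.30 RPKM, and its centred log2 fold change of -0.08 did not pass the test. Rheb was called lower with 0.1 RPKM added (-0.45) and higher after centring without a filter, so its direction depended on the processing.

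Within mTORC1 itself, the kinase gene Mtor went from 0.980 ± 0.284 to 3.31 ± 0.498 RPKM. It was called lower after centring (-0.41), after centring with 0.1 RPKM added (-0.30) and with quantile normalization (-0.24). It was not called under median-of-ratios scaling (0.03) or after centring without a filter, so its call depended on the processing. Rptor, the raptor gene, rose under all 4 scalings (0.28 to 0.61), from 1.05 ± 0.259 to 6.25 ± 0.795 RPKM. Deptor, encoding an inhibitor bound to the kinase, fell under all 4, with a centred log2 fold change of -0.77 (SE 0.20, adjusted p = 0.00244), and was not called without a filter (-0.37). Its lowest, median and highest value was 1.25, 2.04 and 2.74 RPKM in non-tumor and 2.04, 5.22 and 6.66 RPKM in tumor libraries, and the groups overlapped: tumors 1 to 3 were at 2.04 to 2.57 RPKM, within or below the upper non-tumor values, and tumors 4 to 7 were at 5.22 to 6.66 RPKM. Tumors 1 to 3 were thus the low ones for both Sesn3 and Deptor. They were also lower than tumors 4 to 7 in summed delta (156 to 413 against 500 to 1749 RPKM) and ductal markers (115 to 194 against 222 to 1080 RPKM). The same held for fibroblast and mural (44.1 to 172 against 225 to 509 RPKM) and immediate early markers (30.3 to 31.6 against 52.5 to 120 RPKM). The alpha, beta, acinar, endothelial, immune and proliferation sums overlapped. Their part in the split was not tested. The other inhibitor gene, Akt1s1, which encodes PRAS40, and Mlst8, which encodes a kinase-binding subunit, did not pass the centred test, and Mlst8 was called higher in the other 3 scalings (0.41 to 0.78).

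The 2 largest falls relative to the median gene were those of Eif4ebp1 and Tfeb, which encode targets of mTORC1. Eif4ebp1 (chromosome 8, 27260327 to 27275656), the only gene of the machinery called lower in tumors on the deposited scale, had a lowest, median and highest value of 17.0, 20.2 and 27.1 RPKM in non-tumor pancreas and 3.61, 6.74 and 18.0 RPKM in tumors. Tumor 7 alone, at 18.0 RPKM, reached the non-tumor range, and the other 6 tumors were at 3.61 to 7.78 RPKM. Tumor 7 also had the highest summed acinar markers of the tumors, 19.4% against 0.745 to 8.25%, and their part in its Eif4ebp1 level was not tested. The log2 fold change was -1.50 (SE 0.22, adjusted p = 3.37e-06) on the deposited scale, -1.72 without tumor 7, and -3.04 (SE 0.25, adjusted p = 1.77e-08) after centring.

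Tfeb (chromosome 17, 47737037 to 47792416), the transcription factor of lysosomal genes that mTORC1 keeps out of the nucleus, had a lowest, median and highest value of 0.667, 1.21 and 3.66 RPKM in non-tumor pancreas and 0.874, 1.04 and 2.06 RPKM in tumors. These ranges overlapped, and relative to the median gene all tumors were lower (log2 fold change -1.63 (SE 0.11, adjusted p = 2.82e-09)). Rps6kb1, encoding S6 kinase 1, which phosphorylates Rps6, read 2.43, 3.25 and 4.08 RPKM in non-tumor pancreas and 4.24, 4.98 and 5.27 RPKM in tumors. It was higher on the deposited scale (0.46) but lower relative to the median gene (-1.08 (SE 0.10, adjusted p = 7.81e-08)). Eif4ebp2 also fell relative to the median gene (-0.59 (SE 0.14, adjusted p = 0.00173)) while its RPKM went from 4.65 ± 1.41 to 9.86 ± 2.60, and was not called without a filter (-0.19).

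Ratios of related genes within a library do not depend on how libraries were scaled, and they separated the groups. The ratio of Rragb to Rraga had a lowest, median and highest value of 0.00675, 0.0432 and 0.0755 in non-tumor pancreas and 0.453, 1.13 and 2.13 in tumors, where Rragb exceeded Rraga in 4 of 7 libraries. The ratio of Rragc to Rragd was 0.933, 1.69 and 3.06 in non-tumor and 4.12, 6.08 and 8.36 in tumor libraries. The ratio of Sesn2 to Sesn1 was 0.126, 0.20 and 0.363 against 2.58, 3.31 and 3.63, and Sesn2 was the lower gene in all 8 non-tumor libraries and the higher in all 7 tumors.

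The CASTOR and 4E-BP pairs were also separate. Gatsl2 over Gatsl3 was 0.457, 1.76 and 4.78 in non-tumor tissue and 28.5, 43.2 and 75.9 in tumors. Gatsl3 lay under the expression filter. The non-tumor ratios rest on 5 to 19 reads of Gatsl2 and 2 to 22 of Gatsl3 per library, so they are imprecise. Eif4ebp1 over Eif4ebp2 was 3.05, 4.11 and 9.47 in non-tumor tissue and 0.302, 0.671 and 1.32 in tumors, with Eif4ebp1 the higher gene in 8 of 8 and 2 of 7 libraries. In each of these 5 pairs the groups did not overlap, and a two-sided exact permutation test on the log2 ratios gave p = 0.000311, the smallest that 7 against 8 libraries allow (adjusted p = 0.000373 over 6 pairs). How often other gene pairs separate these groups was not counted. After centring, 13.9% of all tested genes had all tumors higher and 17.2% had all tumors lower. Each of the 5 pairs holds a gene already called relative to the median gene, so the ratios are not separate evidence. For Fnip1 over Fnip2 the groups overlapped (exact permutation p = 0.0261, adjusted p = 0.0261).

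In alpha cells the Rragb to Rraga ratio was 0.730, 1.10 and 1.32 in heterozygous and 0.642, 0.816 and 1.71 in knockout libraries, again as lowest, median and highest. Eif4ebp1 was below Eif4ebp2 in all 8 alpha cell libraries. None of the 4 pairs tested there passed the test between genotypes, with exact permutation p from 0.25 to 0.893 (adjusted p 0.762 to 0.893). The CASTOR and 4E-BP pairs, which each hold a gene listed at 0 in some alpha cell libraries, were not among them. The smallest p that 3 against 5 libraries allow is 0.0357 before adjustment. After adjustment over 4 pairs, no pair could pass on its own, so equal ratios are not shown. The alpha cell and tissue tables were made separately, so no test was run between them.

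**Figure D5:**
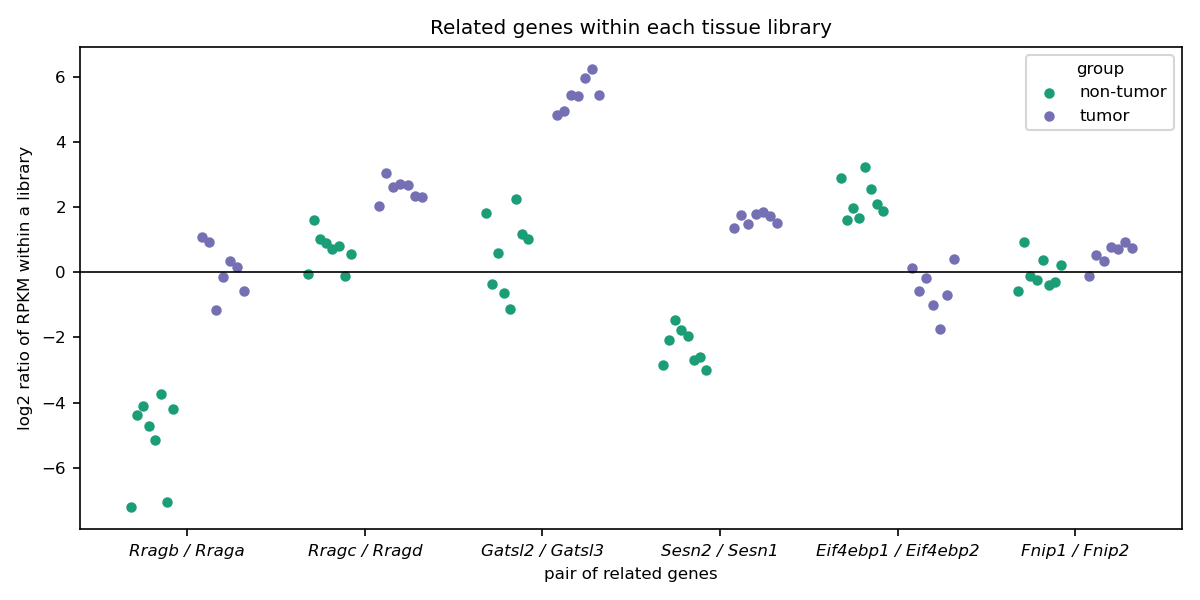
Log2 ratio of RPKM between related genes within each of 8 non-tumor and 7 tumor libraries, 1 point per library; the line at 0 marks equal levels. The groups are apart for 5 of the 6 pairs and overlap for Fnip1 over Fnip2.

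Genes around the machinery were read from 4 lists: inputs from TSC, AKT and AMPK, lysosomal amino acid transport and other sensors, mTORC2 with shared subunits, and downstream translation and autophagy effectors. In alpha cells 0 of 34 tested genes of these lists passed the test in either direction, against 0.159% of all genes higher and 0.103% lower, so that 0 is near the background. The list medians were -0.04, -0.67, 0.49 and -0.27 in that order, against 0.00 over all genes. The lowest p values of the first 2 lists belonged to Ddit4, which encodes the stress-induced inhibitor REDD1 (-2.27 (SE 1.06, adjusted p = 0.477) as log2 fold change), the AMPK catalytic subunit gene Prkaa1 (-0.76 (SE 0.37, adjusted p = 0.484)), and the 2 chains of a leucine transporter, Slc3a2 (-1.24 (SE 0.43, adjusted p = 0.329)) and Slc7a5 (-1.21 (SE 0.46, adjusted p = 0.376)). In the other 2 lists they belonged to the mTORC2 genes Mapkap1 (1.49 (SE 0.52, adjusted p = 0.335)) and Rictor (-0.65 (SE 0.51, adjusted p = 0.686)), and to Maf1, which encodes a repressor of RNA polymerase III (-0.96 (SE 0.56, adjusted p = 0.557)), and the lipin gene Lpin1 (-0.91 (SE 0.56, adjusted p = 0.581)). None of these genes passed the test. The mean of Ddit4 was 121 ± 196 RPKM (SD, n = 3) with heterozygous and 7.06 ± 5.75 RPKM (SD, n = 5) with knockout genotype, an SD above the mean in the first group, and the immediate early markers given above were lower in knockout cells as well.

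In tumors, relative to the median gene, 28.6% of all tested genes rose and 36.7% fell, and of 11 tested inputs 1 rose and 3 fell. Prkaa1 rose (1.09 (SE 0.11, adjusted p = 1.87e-07)) and the AKT kinase gene Akt1 fell (-0.97 (SE 0.11, adjusted p = 4.99e-07)). Of 9 lysosomal and other sensors, 2 rose and 4 fell, among them Slc38a9, the arginine-sensing transporter of the lysosome (-1.20 (SE 0.09, adjusted p = 4.42e-09)), and the proton-coupled transporter gene Slc36a1 (-1.09 (SE 0.12, adjusted p = 8.79e-07)). Of 5 mTORC2 and shared genes 1 rose and 4 fell, with the lowest p for Prr5 (-1.87 (SE 0.16, adjusted p = 3.26e-08)) and Mapkap1 (-1.07 (SE 0.09, adjusted p = 3.43e-08)). Of 13 downstream effectors 3 rose and 6 fell, led by Eef2k, the elongation factor 2 kinase gene (-1.89 (SE 0.16, adjusted p = 1.78e-08)), and Pdcd4, a translation inhibitor that S6 kinase marks for degradation (-1.02 (SE 0.16, adjusted p = 2.79e-05)). The centred list medians were -0.09, -0.21, -0.91 and -0.18 against -0.08 over all genes. The 8 genes named here were called the same way under all 4 scalings. On the deposited scale 0 of these 38 tested genes fell and 36 rose, near the 3.68 and 90.7% of all genes.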

How the data were processed

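Bulk RNA-seq of 8 sorted alpha cell libraries and 15 tissue libraries was used. Total RNA was purified on RNeasy columns and made into TruSeq RNA libraries, per the labels' protocols. CASAVA 1.8, GSNAP and the build GRCm38 are named per the submitters' processing notes, without roles. The authors deposited RPKM values in 2 tables; the headers give no unit, and it was read from the values. The counter, the annotation, strand and any between-library scaling were not given in the sources used here. A date stood in place of 25 and 26 gene symbols, none of them among the 38. Because RPKM hides depth, whole reads were recovered for the tissue table (all 17573 genes above 0, within 0.05 read). They gave 7084676 to 14071432 reads in non-tumor and 11088782 to 15605157 in tumor libraries, which are lower bounds, and they are given as depth only. More reads mean less counting error, so levels of few reads, such as Rragb in non-tumor tissue, are the least precise.

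Two-sided tests were run in R 4.3.3 by limma 3.58.1, with an intensity trend, on log2(RPKM + 1). P-values were adjusted by Benjamini-Hochberg over all tested genes, and 0.05 was the threshold. A gene was tested if it had 1 RPKM in at least 3 alpha cell or 7 tissue libraries, the size of the smaller group. Fold changes on this scale understate the change of low genes. Each table was fitted alone, without covariates, and tissue both as deposited and centred. The fits were tested on simulated data, in which the changed genes all had a reference mean above 2 on that log2 scale. The alpha cell fit called 52% of genes given a log2 change of 2 and 94% of those given 4. The uncentred tissue fit called 97 and 99%. False calls were 11 with 10775 genes tested in alpha cells and 10 with 7191 in tissue. Ratios within libraries were compared by exact permutation tests. Python 3.11.15, pandas 2.3.3, numpy 2.4.6 and matplotlib 3.10.9 did the rest. Positions and promoters came from RefSeq (GRCm38.p6), which held a promoter for 33 of the 38. The labels do not show that replicate numbers pair samples, and whether tumors and non-tumor tissue share animals is not given. Alternatives were the normalizations, pseudocount 0.1, array weights, a mean of at least 5 RPKM or no filter, a replicate block, a covariate for libraries with few genes, and each library left out.

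The genes and lists were chosen with earlier results of these data known. All 38 genes are described by complex. Values by library are given for the 4 of lowest p in alpha cells, since none passed, and in tissue the lowest, median and highest value of each group for the 5 largest rises and falls among called genes. Kptn was named after its values were seen. From each further list, the 2 genes of lowest p are named.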

Additional observations from a re-analysis of the deposited data

Results flagged for a closer look

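In 10 of 105 groups of values tested, 1 library stood far from the others of its group for 1 gene, by Dixon's criterion. Chance alone gives about 1 in 20 for normally distributed values. Genes of 1 library can deviate together, so no excess over chance is read from the 10. Knockout alpha cell library 2 was low for Lamtor2, at 0.739 RPKM against 23.9 to 30.3 RPKM in the other 4, and low for the KICSTOR gene Itfg2, at 0.017 RPKM. The same library was high for Rps6kb1, at 9.86 RPKM against 2.63 to 3.35 RPKM. Knockout library 1 was high for Fnip1, at 8.58 RPKM. Both libraries belong to the class that listed few genes above 0.

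Non-tumor library 2 was the high one for 4 genes: the GATOR1 gene Depdc5 at 0.963 RPKM, the GATOR2 gene Wdr24 at 2.62 RPKM, Kptn at 1.93 RPKM and Tfeb at 3.66 RPKM. It also had the highest summed immune markers of its group, 640.8 RPKM or 0.103% of the library. Its alpha, delta, proliferation and immediate early sums (556, 71.5, 11.5 and 48.1 RPKM) were the highest of the group too. Its acinar and ductal sums were the lowest (52.7% of the library and 88.8 RPKM). Tumor 4 was the high tumor for Tfeb, at 2.06 RPKM, and had the highest summed immune markers of the tumors, 587.5 RPKM. Its beta, delta, ductal and endothelial sums (7626, 1749, 1080 and 81.8 RPKM) were also the highest of the tumors. The part of cell content in the Tfeb level was not tested. Non-tumor library 6 was high for Akt1s1, at 5.69 RPKM.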

How the results depend on the processing

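In alpha cells 0 genes of the machinery were called in either direction under every setting run, except 0 to 1 lower over libraries left out in turn. The 1 was Kptn without heterozygous library 3: the filter asks for as many libraries as the smaller group holds, so it then dropped to 2 and Kptn passed through the 2 high heterozygous libraries alone, and nothing is read from that call. Uncalled estimates there changed sign: Eif4ebp2 ran from -0.0073 to 1.55 over libraries left out, Sesn2 became 0.38 with array weights, 0.14 with quantile normalization, 0.034 with the library-class covariate and -0.52 to 0.23 over libraries left out, and Gatsl2 became 0.066 with the covariate and -0.38 to 0.032 over libraries left out. In tissue the deposited-scale counts were 32 higher and 1 lower over all libraries left out, 17 higher with a mean of at least 5 RPKM (18 tested), 11 higher and 14 lower with quantile normalization, and 13 higher and 9 lower with median-of-ratios scaling. With quantile normalization and then median-of-ratios scaling, Tfeb became -1.30 and -1.0, Rragd -1.24 and -1.03, Rps6kb1 -1.07 and -0.91, Deptor -0.69 and -0.49, Lamtor2 -0.50 and -0.57, Lamtor4 -0.61 and -0.62, Flcn -0.51 and -0.33, and Eif4ebp2 -0.66 and -0.54. These scalings remove the shift between the groups by construction. Tfeb on the deposited scale became 0.066 with array weights and ran from -0.17 to 0.051 over libraries left out, the upper end without non-tumor library 2. Relative to the median gene, 10 to 11 rose and 13 to 15 fell over libraries left out. Without a filter 19 rose and 7 fell, since a smaller shift between the groups is then removed by construction, and with a mean of at least 5 RPKM 6 fell among fewer genes tested. Without a filter the calls of Deptor, Lamtor2, Lamtor4, Flcn and Eif4ebp2 were lost.

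With the replicate block, which the labels do not show to be a true pairing (correlations of same-numbered deviations were 0.001 to 0.087 in alpha cells and -0.222 to 0.149 in tissue), 0 and 0 genes were called in alpha cells, 32 higher and 1 lower on the deposited scale, and 10 higher and 13 lower after centring. Under the block Gatsl2 in alpha cells was 0.018, and the centred Lamtor2 call was lost (adjusted p = 0.0596). Alpha cell depth is unknown, and the number of libraries limits that comparison.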
